A study of Mus musculus with 6 samples.

Results

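Laminins and their receptors are described here by the genes that encode laminin chains and integrin subunits, the members being those rows of the count table whose symbol is Lama, Lamb or Lamc followed by a digit, or Itga or Itgb followed by the number or letter of a subunit. The members numbered 37 of 54532 genes, namely 11 laminin chains, 18 integrin alpha subunits and 8 integrin beta subunits. Of these, 33 passed a filter on low counts, as did 17099 genes in all, and the other 4 (Itgad, Itgae, Itgax and Itgb6) are given by their counts alone. RNA was sequenced from tissue labelled as sciatic nerve of mice at postnatal day 3, with 1 library per mouse, in 3 control mice (WT) and 3 Dok6-/- mice (called Dok6 KO below). The Dok6-/- line carries a germline deletion of exon 3 of Dok6, made by crossing a floxed allele to EIIA-cre mice, in which Cre acts in the early fertilized egg. The deletion is thus meant for every cell of the animal, and the line does not tell neurons from Schwann cells. All mice were on a C57BL/6 background, and the controls were littermates. Levels are given as CPM, the counts of a gene per M counts of its library after TMM scaling, and 3 counts in a library, taken as the smallest detectable level, correspond to between 0.156 and 0.172 CPM.

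A laminin is a trimer of 1 alpha, 1 beta and 1 gamma chain, and it is the protein on which a basement membrane assembles. Cells hold on to it through integrins, which are pairs of an alpha and a beta subunit. Integrins that contain Itga3, Itga6 or Itga7 with Itgb1, and Itga6 with Itgb4, bind laminins, and dystroglycan is the main receptor outside the integrin family. In peripheral nerve, Schwann cells make a basement membrane in which Lama2, Lama4, Lamb1, Lamb2 and Lamc1 are the usual chains. They need laminin and Itgb1 to sort axons before they myelinate, and mature myelinating cells carry Itga6 with Itgb4 on their outer surface. Other integrins bind collagens, fibronectin or the counter-receptors of leukocytes.

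The bases just before the annotated start are shown for 5 members whose transcripts were higher in the Dok6 KO mice, because they are the laminin chain with the largest difference of those past the test (Lamb1), the members with the smallest adjusted p-values (Itga4 and Itga5), and a pair of neighbours on chromosome 13 that were higher together (Itga1 and Itga2). They come from the RefSeq promoter table of GRCm38.p6, in which 23 of the 37 members have an entry, and are written 5′ to 3′ on the strand of the gene, with GC boxes (GGGCGG on either strand) in capitals. The windows lie at chr12:31265043-31265233 on the plus strand for Lamb1, at chr2:79255176-79255425 on the plus strand for Itga4, at chr15:103366792-103367041 on the minus strand for Itga5, at chr13:115101965-115102214 on the minus strand for Itga1 and at chr13:114932101-114932350 on the minus strand for Itga2.
Lamb1: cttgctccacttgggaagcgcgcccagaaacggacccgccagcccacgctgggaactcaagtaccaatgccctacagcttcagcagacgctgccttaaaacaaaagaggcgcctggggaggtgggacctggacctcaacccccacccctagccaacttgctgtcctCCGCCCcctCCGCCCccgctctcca
Itga4: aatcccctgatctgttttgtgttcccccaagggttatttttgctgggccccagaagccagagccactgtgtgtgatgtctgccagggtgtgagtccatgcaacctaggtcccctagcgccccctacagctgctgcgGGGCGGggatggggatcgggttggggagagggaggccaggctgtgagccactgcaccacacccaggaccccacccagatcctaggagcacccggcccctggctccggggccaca
Itga5: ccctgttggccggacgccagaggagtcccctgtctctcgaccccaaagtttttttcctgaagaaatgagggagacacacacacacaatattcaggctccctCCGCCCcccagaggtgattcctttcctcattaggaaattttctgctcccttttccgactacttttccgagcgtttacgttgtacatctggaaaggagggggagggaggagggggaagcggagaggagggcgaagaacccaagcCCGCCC
Itga1: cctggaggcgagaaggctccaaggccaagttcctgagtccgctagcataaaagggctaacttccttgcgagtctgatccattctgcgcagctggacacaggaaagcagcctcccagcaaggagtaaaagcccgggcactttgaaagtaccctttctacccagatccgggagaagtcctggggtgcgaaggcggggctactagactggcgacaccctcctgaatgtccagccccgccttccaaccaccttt
Itga2: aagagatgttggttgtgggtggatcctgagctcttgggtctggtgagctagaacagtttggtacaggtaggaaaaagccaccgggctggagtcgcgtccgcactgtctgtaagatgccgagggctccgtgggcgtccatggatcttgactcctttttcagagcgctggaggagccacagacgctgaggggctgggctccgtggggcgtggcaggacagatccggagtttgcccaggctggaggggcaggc

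The window of Lamb1 is 191 bases long, as 59 bases that fall within the gene in GENCODE M21 were left out, and the others are 250 bases long. Besides the GC box, the letters TGANTCA were searched as an AP-1 site, those of TATAAA as a TATA box, those of AACAAAG as a Sox site and those of GGAATG as a TEAD site, on both strands. None of these motifs can hold another. Lamb1 and Itga5 held 2 GC boxes each and Itga4 held 1, whereas Itga1 and Itga2 held none, and none of the 5 windows held any of the other motifs. Of all 32851 promoter windows of 250 bases, 32.7% held a GC box, 6.7% an AP-1 site, 12.4% a TATA box, 5.0% a Sox site and 12.6% a TEAD site. For windows of 191 bases these shares were 23.1%, 5.3%, 8.8%, 3.9% and 10.2%. These letters are a description of the windows and not of binding.

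The libraries were first checked against their labels. They held between 17699904 and 18678170 counts. Dok6 was counted at 17.8, 11.9 and 17.5 CPM in WT mice 1, 2 and 3 and at 7.26, 5.78 and 7.15 CPM in Dok6 KO mice 1, 2 and 3, a log2 fold change of -1.23 ± 0.20 (SE, adjusted p = 0.0118). Markers of the central nervous system were high in all 6 libraries. The summed level of 10 astrocyte genes was 2868 to 3427 CPM in WT and 2302 to 4283 CPM in Dok6 KO, and that of 12 genes of spinal cord neurons was 1777 to 2161 CPM in WT and 1527 to 1685 CPM in Dok6 KO, with 2 of 12 lower. The sum of 10 genes of the oligodendrocyte lineage was 665 to 958 CPM and 607 to 986 CPM. A sciatic nerve should hold few astrocytes or spinal neurons, so these markers go against the tissue label, and the levels below are those of the libraries as labelled.

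Several marker lists also differed between the genotypes, and their counts stand against 8.62% of all genes higher and 6.01% lower. Sums over 15 skeletal muscle genes were 38.1 to 58.6 CPM in WT and 160 to 729 CPM in Dok6 KO, with 9 of the 12 genes tested higher and Tnnc2 at 0 in every library. Sums over 12 genes of sensory neuron cell bodies were 179 to 185 CPM and 308 to 743 CPM, with 9 of 12 higher and Mrgprd at 0 in WT mouse 1. For 10 fibroblast and perineurium genes the sums were 349 to 1252 CPM and 2099 to 3148 CPM, with 5 of 10 higher. For 12 endothelial genes they were 221 to 355 CPM and 374 to 506 CPM, with 4 of 12 higher. For 14 Schwann cell genes they were 402 to 2215 CPM and 740 to 7304 CPM, with 7 of 14 higher, but this list shares genes such as Mbp, Cnp and Mag with oligodendrocytes, and Mbp alone gave 1013 CPM of its sum in WT mouse 3. For 10 pericyte and smooth muscle genes they were 252 to 373 CPM and 401 to 718 CPM, with 2 of 10 higher. Of 12 macrophage and leukocyte genes (129 to 180 CPM and 183 to 203 CPM) none passed the test. The part of these differences in the values below was not tested, and in bulk RNA more cells of a type and more RNA per cell cannot be told apart.

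**Figure D1:**
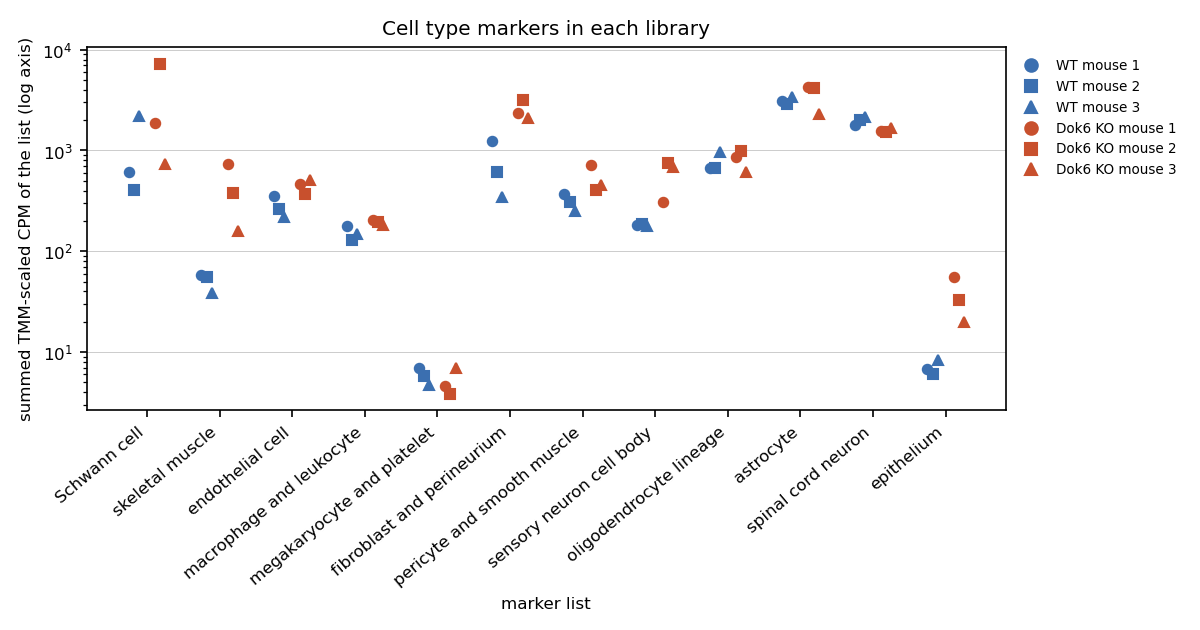
Summed TMM-scaled CPM of each marker list (log axis) in each of the 6 libraries, with 1 point per mouse. The muscle, fibroblast, endothelial and sensory neuron sums of the 3 Dok6 KO mice lie above those of the 3 WT mice, whereas astrocyte sums range from 2302 to 4283 CPM and overlap.

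Members that differed between the genotypes were higher in the Dok6 KO mice. In the quasi-likelihood test of edgeR, adjusted over every gene tested, 11 of the 33 members tested were higher in Dok6 KO mice at an adjusted p under 0.05 (33.3%, against 8.62% of all genes tested). They were the laminin chains Lama3, Lama4 and Lamb1, the laminin-binding Itga6 and Itga7, the collagen-binding Itga1 and Itga2, the fibronectin-binding Itga5 and Itga4, and the beta subunits Itgb1 and Itgb3. None was lower, against 6.01% of all genes. At an unadjusted p under 0.05 20 members were higher and 1 was lower, against 18% and 15.5% of all genes. DESeq2 called 15 members higher and limma voom 9, against 10.6% and 7.86% of all genes, and neither called a member lower, against 8.95% and 6.02%. DESeq2, the tool of the study's methods, added Lama5, Lamb2, Itgb4 and Itgb5 to the 11, and limma voom lost Lama3 and Itga6. The median log2 fold change of the 33 members was 0.70, and that of all genes tested was 0.01. Of the 33 members 30 had a log2 fold change above 0, as had 51.4% of all genes.

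The size of the increase was moderate. A log2 fold change above 1 was reached by 7 of the 11 (21.2% of the members tested, against 3.58% of all genes), namely Lama4, Lamb1, Itga6, Itga2, Itga5, Itga4 and Itgb3. None passed the threshold of the study's methods, an absolute log2 fold change above 2 with an adjusted p under 0.05, which 1.19% of all genes passed. The 3 Dok6 KO libraries were all above the 3 WT libraries for 16 members (48.5%, against 19.6% of all genes) and all below them for 1 member, Itga2b (3.03%, against 18.7%). Members also varied more between mice of one genotype than a typical gene. The highest WT library was 1.59 times the lowest for the median member and 1.25 times for the median gene, and in Dok6 KO these ratios were 1.63 and 1.25. WT mouse 1 was the highest WT library for 24 of the 33 members, although it was the highest for 34.3% of all genes.

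The count of members called depended on single mice, and so did that of all genes. Without WT mouse 2 1 member was higher (Itga5), against 0.318% of all genes. Without WT mouse 3 or Dok6 KO mouse 2 the number was 5 in either case, against 5.72% and 3.16% of all genes. Without WT mouse 3 the calls of Lama3, Lama4, Lamb1, Itga6, Itgb1 and Itgb3 were lost, and without Dok6 KO mouse 2 those of Lama4, Lamb1, Itga7, Itga2, Itgb1 and Itgb3. Leaving out WT mouse 1 gave 9, without Lama3, Itga6, Itga7 and Itga2 but with Lama2 and Lamb2, against 5.56% of all genes. Leaving out Dok6 KO mouse 1 gave 8, without Lama3, Itga1 and Itgb1, against 3.99% of all genes. Leaving out Dok6 KO mouse 3 gave 13, without Lama3 but with Lama5, Itgb5 and Itgb8, against 9.59%. Of the 11, Itga5 was called with any 1 mouse left out. The median log2 fold change of the members stayed between 0.61 and 0.88 in these 6 fits. The number above a log2 fold change of 1 was 1 without WT mouse 2, 4 without WT mouse 3 and 2 without Dok6 KO mouse 2, and the number past the study's threshold was 2 without WT mouse 1 and 1 without WT mouse 3 or without Dok6 KO mouse 1.

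**Figure D2:**
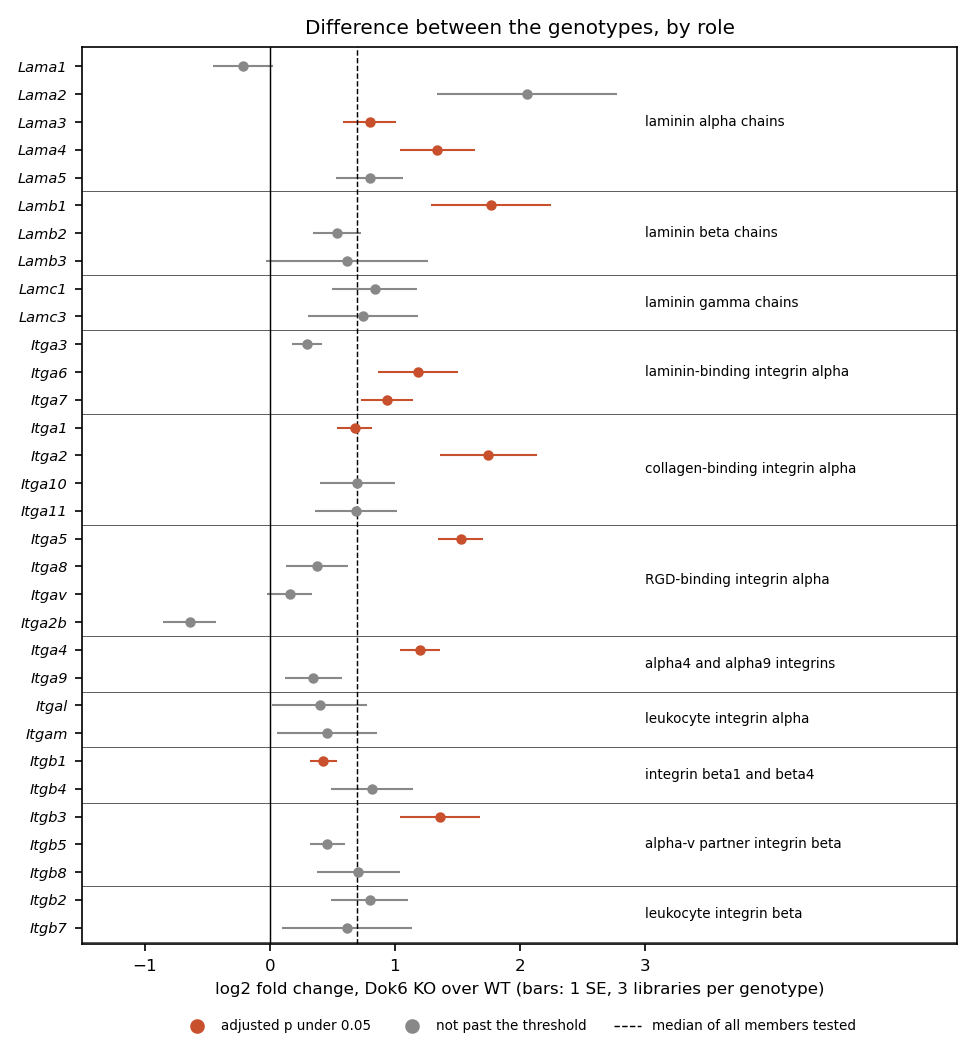
Log2 fold change of 32 of the 33 members tested, Dok6 KO over WT, with bars of 1 SE from the edgeR fit (3 libraries per genotype), grouped by role. The 11 members past an adjusted p of 0.05 all lie to the right of 0, between 0.43 (Itgb1) and 1.77 (Lamb1), and the dashed line is the median of all 33, 0.70.

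Among the alpha chains, which give a laminin its receptor-binding end, Lama4 and Lama3 were higher in the Dok6 KO mice. Lama4, a chain of vessels and of the Schwann cell basement membrane, was at 48.7, 30.2 and 23.8 CPM in WT mice 1, 2 and 3 and at 57.4, 115 and 88 CPM in Dok6 KO mice 1, 2 and 3. The groups did not overlap, though Dok6 KO mouse 1 was close to WT mouse 1, and the log2 fold change was 1.34 ± 0.30 (SE, adjusted p = 0.0252). Lama3, best known as a chain of epithelial basement membranes, was at 5.51, 4.99 and 4.4 CPM in WT and at 9.96, 6.38 and 9.54 CPM in Dok6 KO. Its levels were low and close to one another in the WT mice (log2 fold change 0.80 ± 0.21, adjusted p = 0.041, or 0.0539 by limma voom), and an antisense gene overlaps its exons. Of 7 epithelial genes (sums of 6.08 to 8.41 CPM in WT and 19.9 to 55.6 CPM in Dok6 KO) 4 were tested and 1 was higher, against 8.62% of all genes. This was Cdh1, which gave 12.1, 28.5 and 14.3 CPM in Dok6 KO mice 1, 2 and 3. Krt5, Krt8, Krt18 and Krt19 were high in Dok6 KO mouse 1 alone, at 4.67 to 13.1 CPM, against 0 to 2.44 CPM in Dok6 KO mice 2 and 3. The part of the epithelial genes in the Lama3 values was not tested.

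Lama2, the chain of muscle and Schwann cells that is mutated in merosin-deficient muscular dystrophy, had the largest log2 fold change of any member tested, 2.06, but did not pass the test (SE 0.72, adjusted p = 0.0844). It was at 35.3, 12.2 and 4.86 CPM in the WT mice and at 28.6, 136 and 54.5 CPM in the Dok6 KO mice. WT mouse 1 was above Dok6 KO mouse 1, so the genotypes overlapped, and the WT levels alone spanned more than the 4.18-fold difference between the genotypes. With single mice left out the log2 fold change ran from 1.25 (adjusted p = 0.257, without Dok6 KO mouse 2) to 3.10 (adjusted p = 0.0464, without WT mouse 1), of which only the latter passed the test. It also passed with no filter on low counts (adjusted p = 0.00571). The fibroblast gene Col1a2 was at 352, 136 and 74.1 CPM in WT and at 584, 1002 and 598 CPM in Dok6 KO, and Col1a1 was at 272, 73.2 and 17.7 CPM and at 623, 1053 and 606 CPM. In both collagens and in Lama2, WT mouse 3 was the lowest library and Dok6 KO mouse 2 the highest. Other fibroblast genes had another order, such as Dcn, at 19.8, 11.6 and 7.26 CPM in WT and at 91.8, 52 and 44.4 CPM in Dok6 KO, and Lum, Dpt and Pi16, all highest in Dok6 KO mouse 1, where Lama2 was lowest in that genotype. These genes were picked after their values were seen, and the part of fibroblasts in the Lama2 values was not tested.

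The other alpha chains did not pass the test. Lama5, the widespread chain of mature basement membranes, was at 21.9, 14.1 and 15.3 CPM in WT and at 42.7, 24.5 and 21.9 CPM in Dok6 KO (log2 fold change 0.80 ± 0.27, adjusted p = 0.0778), where the highest WT and the lowest Dok6 KO library were almost level. Without Dok6 KO mouse 1, the highest library, its log2 fold change was 0.44 (adjusted p = 0.218), whereas it was called without Dok6 KO mouse 3 (adjusted p = 0.0431), by DESeq2 (adjusted p = 0.0148) and with no filter (adjusted p = 0.0156). Lama1, the chain of embryonic basement membranes and of the pial surface and vessels of the central nervous system, was at 54.4, 32.2 and 32 CPM in WT and at 33.9, 25.9 and 42.4 CPM in Dok6 KO. Its groups overlapped (log2 fold change -0.21 ± 0.24, adjusted p = 0.564), and Dok6 KO mouse 2, the highest library for Lama2 and Lama4, was the lowest for Lama1.

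Of the beta chains, Lamb1 was higher in the Dok6 KO mice. Lamb1, the beta chain of early development and of endoneurial basement membranes, was at 75.7, 38.5 and 24.4 CPM in WT and at 80.4, 256 and 138 CPM in Dok6 KO. The 3 mice of either genotype lay far apart, and the lowest Dok6 KO library exceeded the highest WT library by little (log2 fold change 1.77 ± 0.48, adjusted p = 0.0416). Lamb2, the beta chain of synaptic, kidney and Schwann cell basement membranes, was at 72.7, 49.9 and 41.5 CPM in WT and at 86.4, 80.1 and 71.7 CPM in Dok6 KO. WT mouse 1 reached the Dok6 KO range, and the difference did not pass the test (log2 fold change 0.54 ± 0.19, adjusted p = 0.0845), although it did in DESeq2 (adjusted p = 0.0274), with no filter (adjusted p = 0.0222) and without WT mouse 1 (adjusted p = 0.0253). Lamb3, the partner of Lama3 in epithelia, was low, with 8 to 20 counts in WT and 9 to 42 in Dok6 KO (log2 fold change 0.62 ± 0.65, adjusted p = 0.536), and without Dok6 KO mouse 1 its log2 fold change was -0.39.

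Of the gamma chains, neither Lamc1 nor Lamc3 passed the test. Lamc1, the gamma chain of nearly all laminins outside epithelia, was at 214, 131 and 88.2 CPM in WT and at 178, 366 and 233 CPM in Dok6 KO. WT mouse 1 lay above Dok6 KO mouse 1 (log2 fold change 0.84 ± 0.34, adjusted p = 0.119). Without Dok6 KO mouse 2 the log2 fold change was 0.51 (adjusted p = 0.335), and with no filter it was called (adjusted p = 0.0197). Lamc3, a gamma chain found in nerve, retina and brain vessels, was at 13.9, 6.65 and 3.26 CPM in WT and 14.3, 9.55 and 16.2 CPM in Dok6 KO, and its groups overlapped (log2 fold change 0.75 ± 0.44, adjusted p = 0.269, or 1.43 without WT mouse 1 and 0.38 without WT mouse 3).

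**Figure D3:**
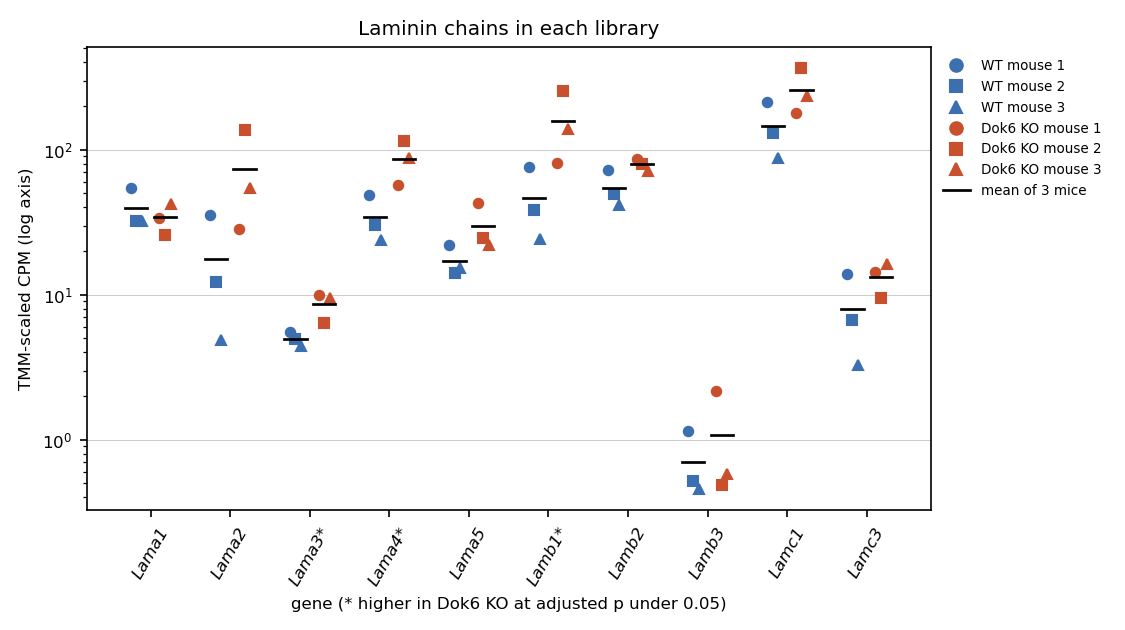
TMM-scaled CPM of 10 laminin chains (log axis) in each library, with 1 point per mouse and a bar at the mean of 3 mice. Lama3, Lama4 and Lamb1, marked by an asterisk, were higher in Dok6 KO, and for Lama2 and Lamc1 WT mouse 1 lies above Dok6 KO mouse 1.

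The mix of chains was followed by their RNA levels per length (RPKM, CPM per kilobase of the deposited gene length), the scale used here to compare different genes. Bulk RNA does not show which chains are made in the same cell or joined in a trimer. In all 6 libraries the summed alpha chains were the lowest and the summed gamma chains the highest. In WT mice 1, 2 and 3 the alpha chains summed to 14.3, 8.28 and 7.33 RPKM, the beta chains to 19.8, 12.2 and 9.36 RPKM and the gamma chains to 29.6, 18.1 and 12.5 RPKM. In Dok6 KO mice 1, 2 and 3 these sums were 14.7, 23.3 and 17.8 RPKM, 22.6, 39 and 25.8 RPKM, and 25.1, 46.8 and 31.9 RPKM. Lamc1 made up 85.4% to 94.5% of the gamma chain RPKM in each library.

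The alpha chains were the most mixed. Lama1 gave 39.4%, 40.2% and 45.1% of the alpha chain RPKM in the WT mice and 23.8%, 11.5% and 24.6% in the Dok6 KO mice, and these ranges did not overlap although its own level did. Lama4 gave 28.3%, 30.2% and 26.9% in WT and 32.4%, 41% and 40.9% in Dok6 KO, also without overlap. Lama2 gave 4.06% to 15.2% in WT and 11.9% to 35.8% in Dok6 KO, and Lama5 13.5% to 18.4% and 9.23% to 25.5%, both with overlap. A share falls when the other chains of its family rise, so these percentages describe the mix and not a separate change.

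Among the beta chains Lamb2 exceeded Lamb1 in the 3 WT mice and in Dok6 KO mouse 1, and Lamb1 exceeded Lamb2 in Dok6 KO mice 2 and 3. The log2 ratio of Lamb2 to Lamb1 per length was 0.65, 1.08 and 1.47 in WT and 0.81, -0.97 and -0.24 in Dok6 KO, a difference of -1.20 between means (two-sided exact permutation p = 0.2, 0.5 adjusted over the 5 ratios tested). The log2 ratio of Lama4 to Lama2 was 0.90, 1.74 and 2.73 in WT and 1.44, 0.20 and 1.13 in Dok6 KO (difference -0.87, exact permutation p = 0.3, adjusted 0.5). Without WT mouse 1 the latter difference was -1.31, without WT mouse 3 -0.40 and without Dok6 KO mouse 2 -0.50. For Lamb2 to Lamb1 it was -1.67 without Dok6 KO mouse 1 and -0.78 without Dok6 KO mouse 2. In neither ratio were the genotypes apart with all 6 mice, and with 3 mice against 3 the smallest p this test can give is 0.10.

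**Figure D4:**
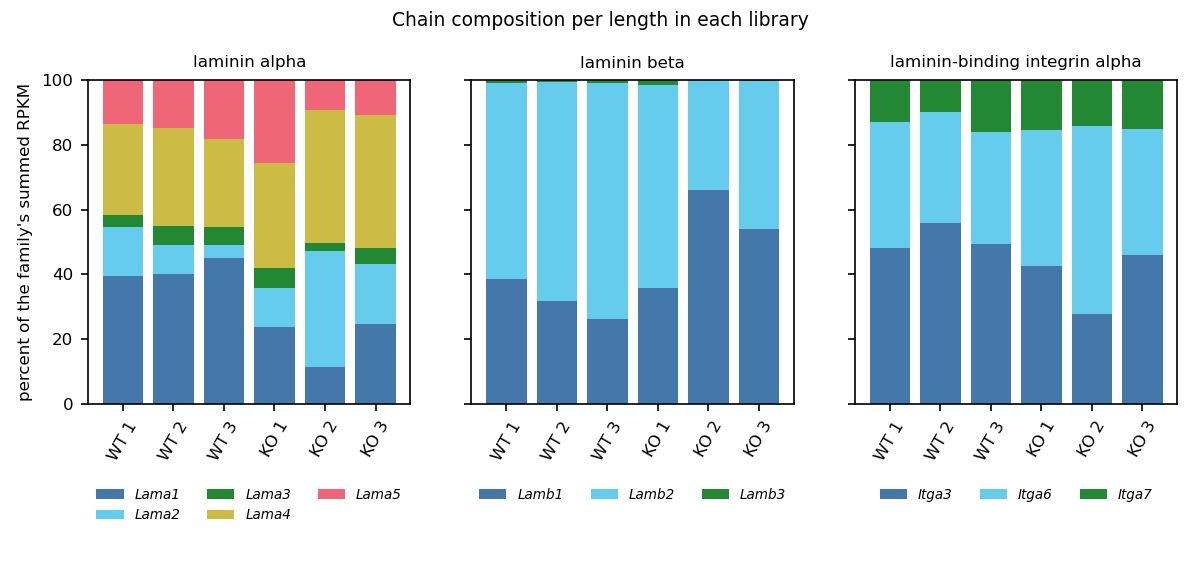
Percent of the summed RPKM of each family that each chain gave, in each library, for the laminin alpha and beta chains and the laminin-binding integrin alpha subunits (stacked bars, from 0 to 100%). Lama1 lies between 39.4% and 45.1% in WT and between 11.5% and 24.6% in Dok6 KO, and Lamb1 exceeds Lamb2 in Dok6 KO mice 2 and 3.

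The laminin-binding alpha subunits were all higher in the 3 Dok6 KO libraries than in any WT library, and Itga6 and Itga7 passed the test. Itga6, which pairs with Itgb1 or Itgb4, was at 67.9, 52.6 and 48.2 CPM in WT and at 86.7, 208 and 90.2 CPM in Dok6 KO. Dok6 KO mouse 2 stood apart from the other mice of its genotype, and the log2 fold change was 1.19 ± 0.32 (SE, adjusted p = 0.0423), or 0.65 without that mouse. By limma voom its adjusted p was 0.057. The transcripts of 7 other genes share stretches of 200 bases or more with Itga6 at 95% identity, and reads from such stretches may have been assigned to either. Itga7, the laminin receptor of muscle that is also made by Schwann cells, was at 20.5, 13.8 and 20.4 CPM in WT and at 28.2, 45.4 and 31.7 CPM in Dok6 KO (log2 fold change 0.94 ± 0.21, adjusted p = 0.0256). Both were highest in Dok6 KO mouse 2, as was the Schwann cell list (1887, 7304 and 740 CPM in Dok6 KO mice 1, 2 and 3), while the muscle list was highest in Dok6 KO mouse 1 (729, 379 and 160 CPM). The other libraries had another order. The Schwann cell list was lowest of its genotype in Dok6 KO mouse 3, where both genes were above Dok6 KO mouse 1. In WT it was highest in mouse 3 (605, 402 and 2215 CPM), where Itga6 was lowest. The part of either cell type in these values was not tested. Itga3, found in epithelia, glia and neurons, was at 53.2, 54.6 and 43.7 CPM in WT and at 55.2, 63 and 67.8 CPM in Dok6 KO, a small difference that did not pass the test (log2 fold change 0.30 ± 0.12, adjusted p = 0.118).

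Their beta partners differed in size. Itgb1, the partner of most alpha subunits, was at 204, 166 and 167 CPM in WT and at 239, 265 and 217 CPM in Dok6 KO. Its replicates were close, and its log2 fold change was the smallest among the members called (0.43 ± 0.11, adjusted p = 0.0376). Itgb4, the partner of Itga6 in hemidesmosomes and mature myelinating Schwann cells, was at 13.7, 10.4 and 5.09 CPM in WT and at 16.4, 21.8 and 13.4 CPM in Dok6 KO. Dok6 KO mouse 3 lay just below WT mouse 1 (log2 fold change 0.82 ± 0.33, adjusted p = 0.117). Without WT mouse 3 the log2 fold change was 0.52 (adjusted p = 0.177), and Itgb4 was called by DESeq2 (adjusted p = 0.0397) and with no filter (adjusted p = 0.0388).

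Per length, Itgb1 was the most abundant member in both genotypes (43.9 ± 5.3 RPKM in WT and 58.9 ± 5.82 RPKM in Dok6 KO, SD, n = 3). It exceeded the sum of the 12 alpha subunits that can pair with it in all 6 libraries, with 50, 40.6 and 41 RPKM against sums of 34.8, 29.6 and 26.8 RPKM in WT and with 58.6, 64.9 and 53.3 RPKM against 43.8, 58.8 and 43.2 RPKM in Dok6 KO. These levels depend on lengths that merge all annotated exons, such as 4081 bases for Itgb1 and 18599 for Itga1. A gene whose transcripts are shorter than its merged exons is understated, and this was not tested. Itgb4 was at 1.38 ± 0.616 RPKM in WT and 2.45 ± 0.608 RPKM in Dok6 KO, well under Itga6 (6.23 ± 1.15 and 14.2 ± 7.65 RPKM). The log2 ratio of Itga6 to Itgb4 was 2.27 ± 0.53 in WT and 2.44 ± 0.43 in Dok6 KO (SD, n = 3, exact permutation p = 0.5, adjusted 0.625). The log2 ratio of Itgb4 to Itgb1 was -5.09 ± 0.63 and -4.61 ± 0.21 (n = 3, exact permutation p = 0.3, adjusted 0.5), and that of Itga7 to Itga6 was -1.47 ± 0.35 and -1.62 ± 0.37 (n = 3, exact permutation p = 0.7, adjusted 0.7). These ratios showed no difference beyond the spread between mice, although each of the genes was higher on average in Dok6 KO.

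Other receptors of laminin behaved unevenly. Of 9 genes in this list 3 were higher and none lower in Dok6 KO, against 8.62% and 6.01% of all genes. The log2 fold change was above 0 for 4 of the 9 and below 0 for 5, whereas 51.4% of all genes were above 0. The summed level of the list was 2384 to 2524 CPM in WT and 2185 to 2311 CPM in Dok6 KO, so it was lower in every Dok6 KO library. Bcam, a receptor for Lama5, had a log2 fold change of 0.61 ± 0.17 (adjusted p = 0.0471), Sdc1, a heparan sulfate proteoglycan, one of 1.38 ± 0.23 (adjusted p = 0.0123), and Adgrg6, the adhesion receptor by which Schwann cells respond to laminin when they begin to myelinate, one of 1.76 ± 0.35 (adjusted p = 0.0193). Adgrg6 was at 6.54, 3.84 and 7.72 CPM in WT and at 12.3, 30.1 and 19 CPM in Dok6 KO. Dag1, which encodes dystroglycan, was at 329, 282 and 256 CPM in WT and at 311, 391 and 275 CPM in Dok6 KO, where the groups overlapped (log2 fold change 0.17 ± 0.14, adjusted p = 0.436).

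Of the 20 genes tested around dystroglycan 5 were higher and none lower, again against 8.62% and 6.01% of all genes. They included Sspn (log2 fold change 1.13 ± 0.18, adjusted p = 0.0114), Sgce, Sntb1 and Prx, and Prx, a protein of myelinating Schwann cells that binds Drp2, ranged from 3.83 to 10.3 CPM in WT and from 18.7 to 330 CPM in Dok6 KO. Of the 20 basement membrane partners of laminins 6 were higher and none lower, beside the same shares of all genes, namely the linker Nid2 (1.66 ± 0.39, adjusted p = 0.0284), the heparan sulfate proteoglycan Hspg2 (2.20 ± 0.56, adjusted p = 0.0353), Col15a1 (2.24 ± 0.33, adjusted p = 0.00968), Ntn4, Fbln2 and Fn1. Nid1, the other nidogen, did not pass (0.57 ± 0.23, adjusted p = 0.119), nor did Agrn (0.04 ± 0.12, adjusted p = 0.852). The median log2 fold changes were 0.72 for the basement membrane partners, 0.35 for the dystroglycan list and -0.07 for the other laminin receptors, against 0.01 for all genes.

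The collagen-binding alpha subunits pair with Itgb1 only. Itga1 and Itga2 lie next to each other on chromosome 13 and passed the test. Itga1, common in vessels, muscle and glia, was at 19.3, 15.9 and 15 CPM in WT and at 28.1, 23.7 and 29.1 CPM in Dok6 KO, with narrow ranges in both genotypes (log2 fold change 0.68 ± 0.14, adjusted p = 0.02). A gene on the same strand, Gm49395, overlaps its exons. Itga2, the collagen receptor of platelets and epithelia, was at 1.95, 0.975 and 3.03 CPM in WT and at 4.56, 8.07 and 7.47 CPM in Dok6 KO, which rested on 17 to 53 counts in WT and 88 to 148 in Dok6 KO (log2 fold change 1.75 ± 0.39, adjusted p = 0.025). Itga10 and Itga11, subunits of cartilage and of fibroblasts, were low and did not pass (log2 fold changes 0.70 and 0.69, adjusted p = 0.142 and 0.183). Itga10 was at 1.49 to 2.63 CPM in WT and 2.44 to 3.82 CPM in Dok6 KO, with overlap. Itga11 was at 1.03 to 2.18 CPM in WT and 2.29 to 2.39 CPM in Dok6 KO, without overlap.

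Itga5 and Itga4 had the smallest adjusted p-values of all members. Itga5, the fibronectin receptor of vessels and mesenchyme, was at 6.71, 4.93 and 5.83 CPM in WT and at 19.5, 14.8 and 16.1 CPM in Dok6 KO. The mice of each genotype lay close together and the genotypes far apart (log2 fold change 1.53 ± 0.18, adjusted p = 0.00635), with adjusted p-values of 0.00859 to 0.0495 when single mice were left out. Itga4, which binds fibronectin and Vcam1 and is made by neural crest and blood cells, was at 6.83, 6.48 and 8.46 CPM in WT and at 15.1, 16.6 and 18.4 CPM in Dok6 KO (log2 fold change 1.20 ± 0.16, adjusted p = 0.0072). Without WT mouse 2 its adjusted p was 0.0519, and an antisense gene, Cerkl, overlaps its exons. The ligand Fn1 was at 159, 114 and 73.1 CPM in WT and at 244, 173 and 215 CPM in Dok6 KO (log2 fold change 0.87 ± 0.25, adjusted p = 0.0493). The muscle, endothelial, fibroblast, pericyte, leukocyte, sensory neuron and epithelial sums given above were apart between the genotypes in the same direction, and their part in the Itga5 and Itga4 values was not tested.

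The remaining alpha subunits of this kind did not pass. Itgav, which pairs with several beta subunits, was at 83.1, 76.1 and 52.5 CPM in WT and at 85.4, 88 and 63 CPM in Dok6 KO (log2 fold change 0.16 ± 0.18, adjusted p = 0.578). Without WT mouse 3 its log2 fold change was -0.01, so no direction can be given. Itga8 (5.62 to 7.52 CPM and 6.46 to 11.2 CPM) and Itga9 (13.1 to 20.9 CPM and 17.1 to 26.7 CPM) overlapped between the genotypes, with adjusted p-values of 0.317 for both. Itga2b, the platelet subunit, was the only member whose Dok6 KO libraries all lay below the WT libraries, with 5.22, 7.28 and 6.69 CPM in WT and 3.99, 4.8 and 3.55 CPM in Dok6 KO (log2 fold change -0.64 ± 0.21, unadjusted p = 0.0146, adjusted p = 0.0725). Its partner Itgb3 moved the other way. In the list of 5 platelet genes, Gp1bb, Gp9 and Ppbp were at or near 0, Gp1ba was lower in Dok6 KO (-0.90, adjusted p = 0.0476) and Pf4 did not pass (0.90, adjusted p = 0.326), with sums of 4.69 to 6.89 CPM in WT and 3.87 to 6.99 CPM in Dok6 KO.

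Of the beta subunits that pair with Itgav, Itgb3 was higher. Itgb3, a receptor for vitronectin and fibronectin, was at 6.48, 4.82 and 3.09 CPM in WT and at 8.45, 17.1 and 11.3 CPM in Dok6 KO, without overlap (log2 fold change 1.36 ± 0.32, adjusted p = 0.0299). Itgb5, its relative in fibroblasts and glia, was at 44.6, 39 and 33.8 CPM in WT and at 62.4, 50.2 and 48.6 CPM in Dok6 KO, again without overlap but just outside the threshold (log2 fold change 0.46 ± 0.14, adjusted p = 0.0559). It was called by DESeq2 (adjusted p = 0.0227), with no filter (adjusted p = 0.0252) and without Dok6 KO mouse 3 (adjusted p = 0.0463). Itgb8, which activates latent TGF-beta and is high in astrocytes, was at 57.3, 53.9 and 62.6 CPM in WT and at 99.1, 140 and 44.3 CPM in Dok6 KO (log2 fold change 0.71 ± 0.33, adjusted p = 0.174). For Itgb8 Dok6 KO mouse 3 was the lowest of all 6 libraries, as it was for the astrocyte sum (4283, 4146 and 2302 CPM in Dok6 KO mice 1, 2 and 3). Its log2 fold change was 1.05 without Dok6 KO mouse 3 (adjusted p = 0.0111) and 0.31 without Dok6 KO mouse 2 (adjusted p = 0.517). Itgb6, an epithelial subunit, had 0 to 4 counts in WT and 0 to 9 in Dok6 KO and was not tested.

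**Figure D5:**
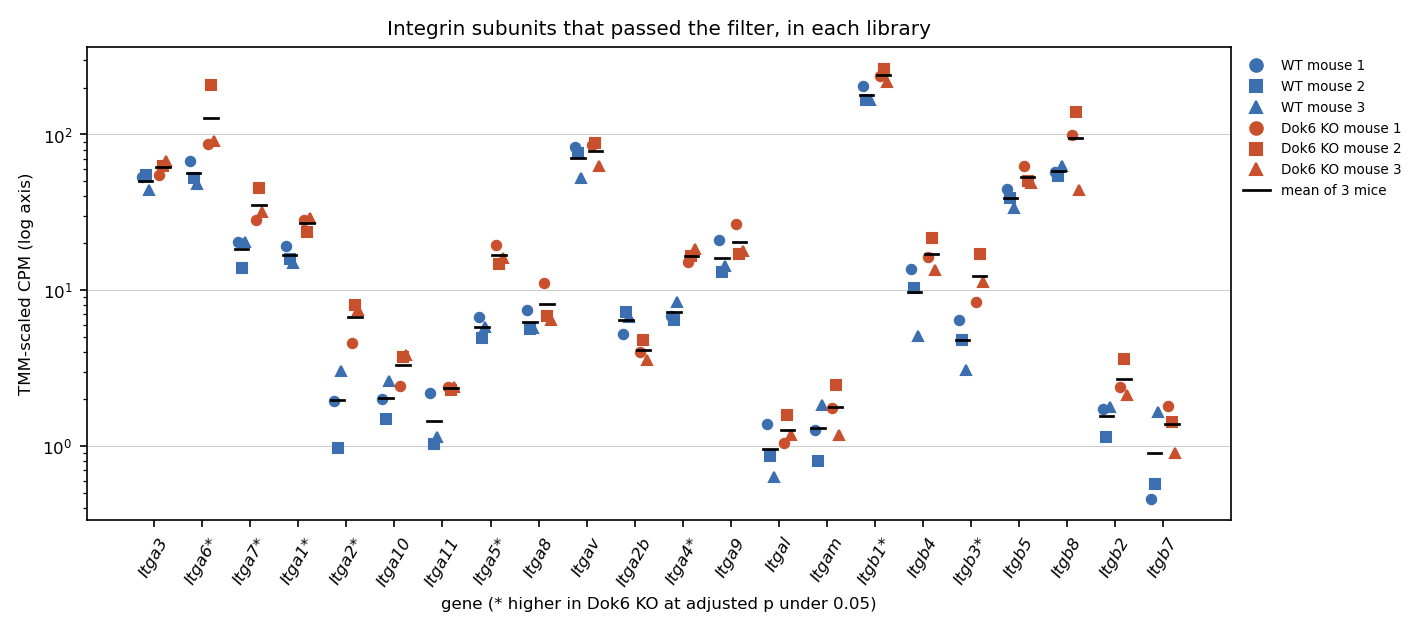
TMM-scaled CPM of the 22 integrin subunits tested (log axis) in each library, with 1 point per mouse and a bar at the mean of 3 mice. Asterisks mark the 8 subunits higher in Dok6 KO, among which Itga5 and Itga4 show the widest gaps between the groups, and Itga2b is the one subunit with all Dok6 KO points below the WT points.

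The leukocyte integrins were low in both genotypes. Itgam, the alpha subunit of macrophages and microglia, had 14 to 32 counts in WT and 22 to 45 in Dok6 KO, and Itgal had 11 to 24 and 20 to 29 counts. Neither passed the test (adjusted p = 0.453 and 0.501). Their beta partner Itgb2 was at 1.72, 1.15 and 1.77 CPM in WT and at 2.39, 3.6 and 2.12 CPM in Dok6 KO, without overlap (log2 fold change 0.80 ± 0.31, adjusted p = 0.115), and Itgb7 overlapped (adjusted p = 0.439). Itgae (2 to 9 and 7 to 10 counts), Itgad (1 to 4 and 0 to 6 counts) and Itgax (0 to 6 and 1 to 8 counts) were not tested. Gene models of Itgad overlap those of 4 other genes.

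Among 35 genes tested whose proteins bind integrin tails or link them to actin, 10 were higher and none lower in Dok6 KO, against 8.62% and 6.01% of all genes, and the median log2 fold change was 0.30. They included Tln1, which links integrins to actin and activates them (0.99 ± 0.17, adjusted p = 0.0134), its partner Vcl (0.67 ± 0.13, adjusted p = 0.0171), Tgfb1i1, a focal adhesion adaptor of smooth muscle and fibroblasts (1.01 ± 0.12, adjusted p = 0.00635), and the tetraspanin Cd151, which binds laminin-binding integrins (0.81 ± 0.12, adjusted p = 0.01). Cd151 was at 20.4, 20.9 and 20.8 CPM in WT and at 31.3, 42.1 and 35.9 CPM in Dok6 KO, so its WT levels were nearly equal and below all Dok6 KO levels. The others included Parvb, Crk, Flna, Tns1 and Plec, with log2 fold changes between 0.28 (Crk) and 0.75 (Flna). The kinases Ptk2 (0.09, adjusted p = 0.464), Src (0.07, adjusted p = 0.627) and Ilk (0.34, adjusted p = 0.563) did not pass.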

How the data were processed

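RNA-seq counts of 3 control (WT) and 3 Dok6-/- mice at postnatal day 3 were analysed, with tissue labelled as sciatic nerve. The deposited table holds raw counts per gene, made by the authors and not normalized, and a length for each gene. The submitters' processing notes name mm10. An aligner, a counting tool and whether strand was used are not given in the sources used here. The labels name a kit without, and the methods a kit with, strand information. Columns were matched to the labels by genotype and mouse number, and no other column of samples was present.

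Genes were kept by filterByExpr, scaled by TMM and tested in one quasi-likelihood fit of edgeR 4.0.16 (R 4.3.3) over all 6 libraries without a block, and p-values were adjusted over 17099 genes by the Benjamini-Hochberg method. The authors' own threshold came from a DESeq2 analysis. SEs were derived from the F statistic, and the common biological coefficient of variation was 16.6%. The tests were tried on simulated data first. The fits were repeated with RLE and upper-quartile scaling, DESeq2 1.42.0, limma voom (limma 3.58.1), no filter, at least 10 counts in every library, the mouse number as a block, and each mouse left out. Ratios per length were compared by a two-sided exact permutation test. Floors of 3 counts cover counting error only, since reads carry no molecular identifiers. P-values rest on 3 mice per genotype.

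The members, the lists of related genes and the marker lists were chosen with earlier results of these data known. Some genes of these lists, a member among them, are not reported here by name. All other members were described, and of the related lists mainly the genes past the test. Positions and overlaps were taken from GENCODE M21 (GRCm38), whose merged exon lengths equalled the deposited lengths of all 37 members. Exons of 12 members overlap those of another gene (Lama2, Lama3, Lamc3, Itga1, Itga4, Itga7, Itga8, Itga10, Itgad, Itgam, Itgav and Itgb4), and 3 (Itga6, Itgb2 and Itgb5) share at least 200 bases at 95% identity with transcripts of other genes (BLAST 2.17.0), so some of their reads may be split or shared.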

Additional observations from a re-analysis of the deposited data

How the results depend on the processing

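None of the members was lower at an adjusted p under 0.05 in any fit. The number of higher members was 11 with RLE or upper-quartile scaling or at least 10 counts in every library, 15 with DESeq2 and 9 with limma voom. With no filter it was 17 of 37, against 6.08% of all genes, and 1 member, Lama2, then passed an absolute log2 fold change of 2. Leaving out 1 mouse gave 1 to 13 higher members, 1 to 9 above a log2 fold change of 1, 0 to 2 past an absolute log2 fold change of 2, and a median log2 fold change of 0.61 to 0.88. With the mouse number as a replicate block, 3 members were higher (Lama5, Itga5 and Itga4), against 2.53% of all genes, 2 of them were above a log2 fold change of 1, and the median was 0.73. Deviations of same-numbered mice from their genotype means correlated at -0.00854, -0.211 and -0.289. Such correlations cannot show whether mice shared a litter or a batch, so the fit with the block is given beside the one without. Of the single genes, 3 changed sign with a mouse left out, Lama1 (-0.40 to 0.09, positive without WT mouse 1), Lamb3 (-0.39 to 1.15, negative without Dok6 KO mouse 1) and Itgav (-0.01 to 0.30, negative without WT mouse 3), and all 3 were short of the threshold in every fit. With a mouse left out the log2 fold change moved by over 1.5 times for 1 of the 11 members called (Itga6) and for 15 of the 22 others (Lama1, Lama2, Lama5, Lamb3, Lamc1, Lamc3, Itga8, Itga9, Itga11, Itgal, Itgam, Itgav, Itgb4, Itgb7 and Itgb8). The genotype difference in the log2 ratio of Lama4 to Lama2 then ranged from -1.31 to -0.40 and that of Lamb2 to Lamb1 from -1.67 to -0.78. The genotype difference in the log2 ratio of Itga7 to Itga6 ranged from -0.29 to 0.06 (0.05 without WT mouse 3 and 0.06 without Dok6 KO mouse 2), that of Itga6 to Itgb4 from -0.06 without Dok6 KO mouse 2 to 0.47 without WT mouse 3, and that of Itgb4 to Itgb1 from 0.12 without WT mouse 3 to 0.69. The cause of these shifts was not tested, and fewer libraries enter the fits that leave out a mouse. The leukocyte integrins and Lamb3 rest on fewer counts than most members.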
